A study of Mus musculus with 18 samples.

Results

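The 8 cytosolic sulfotransferase genes described here are Sult1a1, Sult1b1, Sult1c2, Sult1d1, Sult1e1, Sult2a8, Sult3a1 and Sult5a1. They were taken by name from the deposited bulk RNA-seq count table of mouse liver tumours, after its Ensembl identifiers were matched to GENCODE M21 symbols. All 8 were found among the 55335 genes of the table, and all 8 passed the filter on low counts that left 17013 genes for testing. The list was selected on values of these same libraries, namely how the genes differed between the groups, so the levels of the 8 genes are given as a description, with no p-value. Sult3a1 passed the filter only through the libraries in which it was high.

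The 12 libraries form 4 groups of 3. In the DEN+CCl4 model, 14-day-old mice received the mutagen DEN (N-nitrosodiethylamine) at 1 mg/kg. From the age of 8 weeks they were then given CCl4 (carbon tetrachloride, which damages hepatocytes) at 0.2 ml/kg, repeatedly each week over 12 to 16 weeks. The N-Ras+AKT model was made by hydrodynamic injection into the tail vein, which brings DNA into hepatocytes, of 20 μg each of NRasV12 and myr-AKT plasmid with 1.6 μg of sleeping beauty transposase. The age of these mice is not given in the sources used here. In each model the control tumours were set against tumours after Prom1 depletion, in which a tamoxifen-dependent Cre recombinase, driven together with LacZ from the Prom1 locus, switches on diphtheria toxin A from the Rosa26 locus and so kills cells that express Prom1. Tamoxifen was given in 4 mg doses once tumours had formed, and tissue was taken 16 days after the last dose in DEN+CCl4 and 6 days after it in N-Ras+AKT, so that the 2 models differ in time as well as in the way tumours were made. The strain label gives all 12 libraries the genotype Prom1C-L/+;Rosa26DTA/+, whereas the design text names Prom1+/+;Rosa26DTA/+ littermates as controls and also mentions vehicle (olive oil), so it is not settled here which of the 2, knock-in or tamoxifen, the control mice went without. Nothing in the labels says that the 3 libraries of a group came from separate animals, and p-values measure the spread between these libraries.

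Cytosolic sulfotransferases move a sulfonate group from the donor PAPS (3′-phosphoadenosine 5′-phosphosulfate) to a small molecule, which makes hormones, bile acids, drugs and plant phenols more soluble in water and usually less active. The family is split by sequence: the SULT1 enzymes act mainly on phenols, including oestrogens, thyroid hormone and catecholamines, and the SULT2 enzymes act mainly on the alcohol groups of steroids and bile acids. The liver is a main site of these reactions, and several members differ between male and female mice and with growth hormone.

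Related members of the family could in principle take each other's reads, so the transcripts were compared first. In the transcript with the longest coding sequence of each gene, no exact run of 50 bases was shared with any other gene for Sult1b1, Sult1d1, Sult1e1 and Sult2a8. Such runs made up 8.23% of Sult1a1 (shared with Gm6939), 6.15% of Sult3a1 (shared with Sult3a2), 1.36% of Sult5a1 (shared with many unrelated genes) and 0.723% of Sult1c2 (shared with Sult1c2-ps2). With runs of 100 bases only Sult1a1 kept any, at 2.35%. Over the coding sequence Sult2a8 was 70.9% identical to Sult2a4, the most similar Sult gene, whereas Sult3a1 was 90.9% identical to Sult3a2. The first 60 coding bases show the contrast between these pairs. They are written 5′ to 3′ from the start codon, and capitals in the second and later lines mark bases that differ from the first gene at the same position.
Sult2a8: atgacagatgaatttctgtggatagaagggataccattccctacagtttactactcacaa
Sult2a4: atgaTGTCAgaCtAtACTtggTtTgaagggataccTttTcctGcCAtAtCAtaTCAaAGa
Sult2a1: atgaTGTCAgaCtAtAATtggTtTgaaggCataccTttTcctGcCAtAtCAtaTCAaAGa
Sult3a1: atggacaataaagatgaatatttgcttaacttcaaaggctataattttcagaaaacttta
Sult3a2: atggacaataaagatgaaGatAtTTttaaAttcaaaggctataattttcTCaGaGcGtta
Sult2a4 differed from Sult2a8 at 25 of these positions and Sult2a1 at 26, while Sult3a2 differed from Sult3a1 at only 10. By exact runs Sult1a1 shared the most sequence with another gene, and by coding identity Sult3a1 was the closest of the 8 to another Sult gene. How the deposited counts treated reads that fit 2 genes is not given in the sources used here.

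Levels are in CPM, the counts scaled to library size and TMM factors. To compare genes, CPM was divided by the length of all exons of the gene in kilobases (CPM per kb). On that scale Sult1a1, which acts on simple phenols, had the highest mean in all 4 groups: 274 in DEN+CCl4 controls, 371 after depletion, 342 in N-Ras+AKT controls and 236 after depletion. Sult1d1, known for catecholamines and other amine-bearing phenols, came next in 3 groups, at 70.6, 28.9 and 55.9 CPM per kb in DEN+CCl4 controls, N-Ras+AKT controls and N-Ras+AKT depletion. After depletion in DEN+CCl4 the oestrogen sulfotransferase Sult1e1 stood between them, at 221 CPM per kb against 135 for Sult1d1, and the ranges of all 3 genes overlapped in turn. The lower places changed with the group: Sult2a8 was in place 6 or 7 in 3 groups and in place 3 after depletion in N-Ras+AKT, where its range overlapped that of Sult1e1. Sult3a1 or Sult5a1 was lowest in every group.

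**Figure D1:**
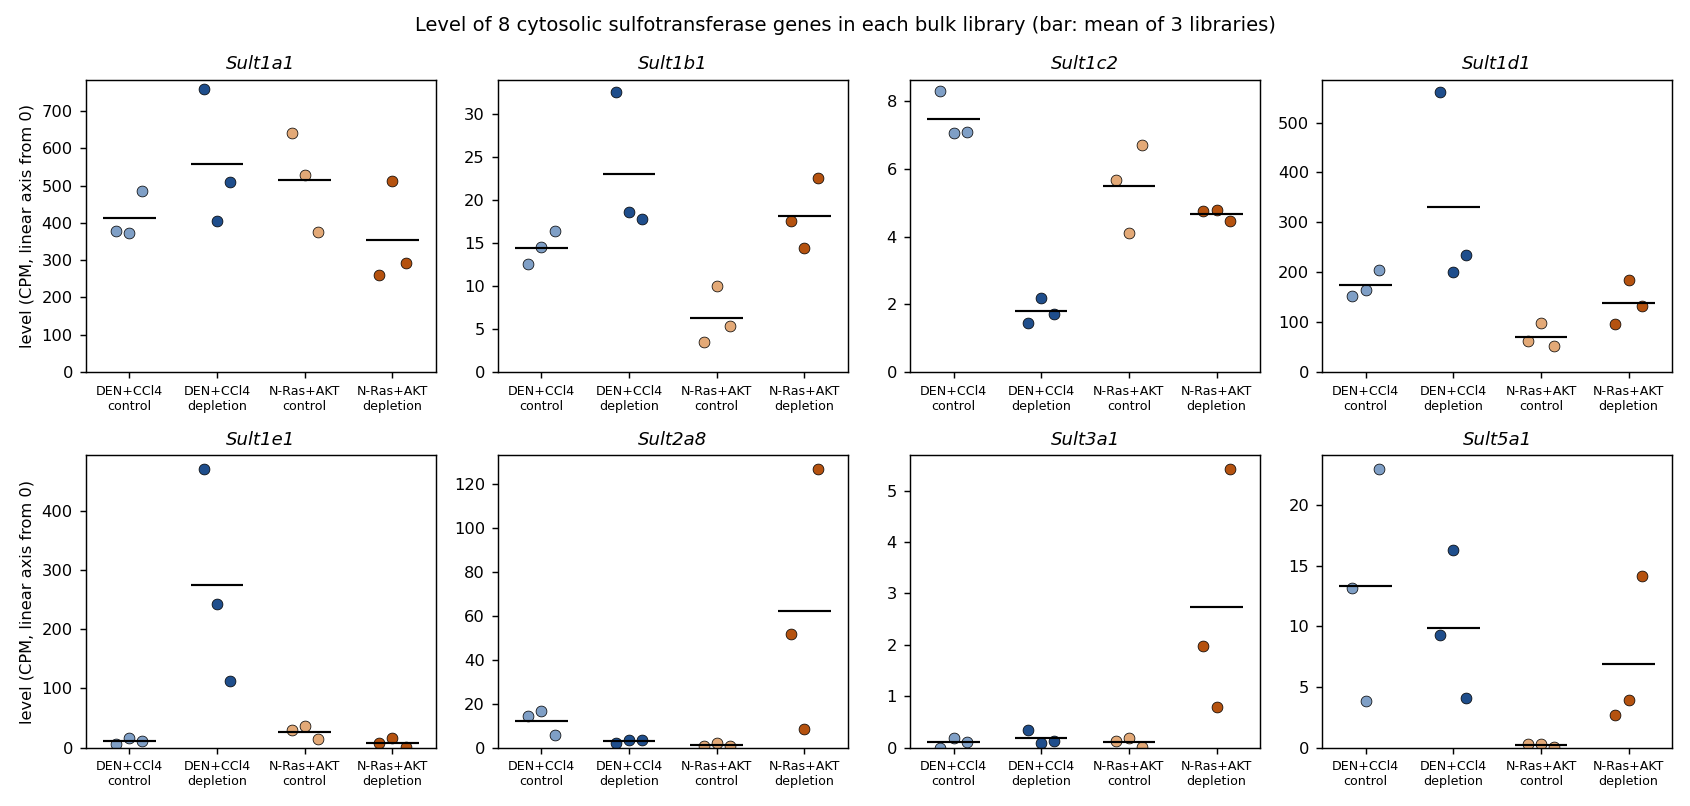
Level of each of the 8 genes (vertical axis, CPM on a linear axis that starts at 0 and differs between panels) in the 3 libraries of each group, with a bar at the group mean. Sult1e1 is high in the DEN+CCl4 depletion libraries and Sult1c2 low in the same libraries. Sult2a8 and Sult3a1 are higher in the N-Ras+AKT depletion libraries than in their controls, and library 17 lies far above the other 2. Sult2a8 in library 11 lies within the range of the DEN+CCl4 controls.

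The make-up of the family differed between groups. Summed over the 21 protein-coding Sult genes, the level was 393 to 468 CPM per kb in DEN+CCl4 controls and 643 to 1384 in the depletion libraries. It was 294 to 487 CPM per kb in N-Ras+AKT controls and 269 to 496 in their depletion libraries. The DEN+CCl4 depletion libraries lay above their controls, and the N-Ras+AKT groups overlapped. Sult1a1 made up 60.5% to 68.8% of the sum in DEN+CCl4 controls and 36.4% to 52.7% after depletion. In N-Ras+AKT it made up 78.7% to 87.5% in controls and 59.1% to 68.4% after depletion. Sult1e1 held 1.16% to 3.22% in DEN+CCl4 controls and 14.2% to 28.4% after depletion, against 4.08% to 6.69% and 0.209% to 2.61% in the matching N-Ras+AKT groups. Sult2a8 held at most 1.24% in any library outside N-Ras+AKT depletion, and there it held 5.87%, 0.535% and 11.7% in libraries 6, 11 and 17.

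**Figure D2:**
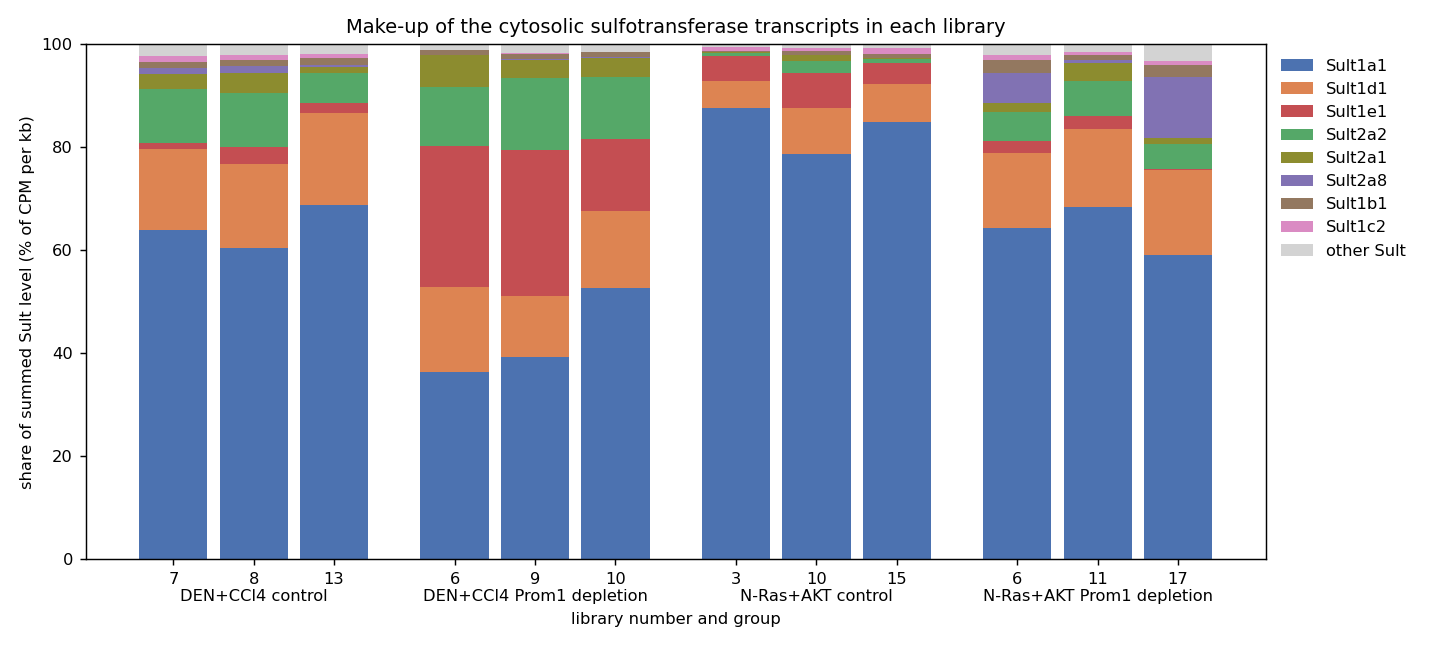
Share of each gene (vertical axis, percent of the summed CPM per kb of all protein-coding Sult genes) in each of the 12 libraries (horizontal axis, library number and group). Sult1a1 takes the largest share in every library, from 36.4% to 87.5%, Sult1e1 is widest in the 3 DEN+CCl4 depletion libraries, and Sult2a8 is visible mainly in N-Ras+AKT depletion libraries 6 and 17.

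Sult1e1 inactivates oestrogens by sulfation of the phenolic hydroxyl group. The gene lies on chromosome 5 (GRCm38, 87575969 to 87591594, minus strand), next to Sult1d1 (87554645 to 87569027) and Sult1b1 (87513339 to 87538195) on the same strand. In DEN+CCl4 it measured 5.66, 16.4 and 11.1 CPM in control libraries 7, 8 and 13, and 470, 242 and 113 CPM in depletion libraries 6, 9 and 10. Every depletion library was above every control, with means of 11.1 ± 5.36 and 275 ± 181 CPM (SD, n = 3). The log2 difference was 4.63 (SE 0.93), a 24.8-fold higher level, and it was 4.00 without depletion library 6. In N-Ras+AKT it measured 30.2, 37.0 and 14.9 CPM in control libraries 3, 10 and 15, and 7.86, 16.1 and 0.857 CPM in depletion libraries 6, 11 and 17. These groups overlapped, and the log2 difference was -1.73 (SE 0.83), or -1.19 without depletion library 17 and -2.65 without depletion library 11. The 2 models thus differed in sign for this gene, with a difference between the depletion effects of -6.36 (SE 1.23), and between -7.28 (without N-Ras+AKT depletion library 11) and -5.19 (without both DEN+CCl4 library 6 and N-Ras+AKT library 17) over the alternatives.

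Sult1d1 followed neither extreme. It measured 152, 164 and 205 CPM in DEN+CCl4 controls and 560, 200.3 and 234 CPM after depletion, so that library 6 alone stood far above the controls and library 9 fell within their range. The log2 difference of 0.93 (SE 0.39) was 0.32 without library 6. N-Ras+AKT controls measured 62.0, 98.0 and 53.1 CPM and depletion libraries 95.9, 184 and 133 CPM, where the lowest depletion library was just below the highest control, and the log2 difference was 0.95 (SE 0.39). Sult1d1 was lower in N-Ras+AKT controls than in DEN+CCl4 controls without overlap, by a log2 difference of -1.29 (SE 0.39).

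Sult1b1, which acts on thyroid hormone and phenols, was present at lower levels with a like pattern. It measured 12.6, 14.5 and 16.4 CPM in DEN+CCl4 controls and 32.6, 18.7 and 17.8 CPM after depletion. The groups did not overlap, but the log2 difference of 0.66 (SE 0.35) was 0.33 without library 6. The N-Ras+AKT controls held 3.48, 10.0 and 5.31 CPM, against 17.5, 14.5 and 22.5 CPM after depletion. Here too every depletion library was above every control, with means of 6.27 ± 3.37 and 18.2 ± 4.06 CPM (SD, n = 3) and a log2 difference of 1.54 (SE 0.36). Among the 28 pairs of the 8 genes, Sult1b1 and Sult1d1 had the highest correlation of log2 CPM over the 12 libraries (Pearson r = 0.836, as a description). Their neighbour Sult1e1 correlated less with each of them (r = 0.496 with Sult1d1 and 0.150 with Sult1b1).

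Sult1a1, on chromosome 7 (126672865 to 126676432, minus strand), varied least over the 12 libraries. It measured 379, 374 and 486 CPM in DEN+CCl4 controls, 759, 405 and 511 CPM after depletion, 642, 528 and 376 CPM in N-Ras+AKT controls, and 260.2, 512 and 293 CPM after depletion. Groups overlapped in every comparison. The log2 differences were 0.44 (SE 0.30) in DEN+CCl4 and -0.54 (SE 0.30) in N-Ras+AKT, and the first was 0.15 without depletion library 6.

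The 250 bases before the RefSeq start of each gene (GRCm38.p6) were searched on both strands for 5 short motifs of factors that act on liver genes. The STAT motif was TTCNNNGAA and the CEBP motif TTGCNNAA. The nuclear receptor half-site was AGGTCA. The TATA box was written TATAAA. The FOXA motif was TGTTTAC, and it was not found in any of these windows. No printed match overlapped another. Windows were found for all 8 genes, 10 windows in all, since Sult1b1 and Sult2a8 have 2 starts each. The 3 neighbours on chromosome 5 are shown because they lie side by side and yet differed in DEN+CCl4. Each line reads 5′ to 3′ in the direction of the gene and ends just before the start, and capitals mark a motif.
Sult1e1, chr5:87591612-87591861, minus strand: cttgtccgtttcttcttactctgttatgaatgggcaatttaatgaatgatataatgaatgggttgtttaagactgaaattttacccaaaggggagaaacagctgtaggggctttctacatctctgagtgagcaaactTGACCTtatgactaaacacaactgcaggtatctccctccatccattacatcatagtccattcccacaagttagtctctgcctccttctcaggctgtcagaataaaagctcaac
Sult1d1, chr5:87569007-87569256, minus strand: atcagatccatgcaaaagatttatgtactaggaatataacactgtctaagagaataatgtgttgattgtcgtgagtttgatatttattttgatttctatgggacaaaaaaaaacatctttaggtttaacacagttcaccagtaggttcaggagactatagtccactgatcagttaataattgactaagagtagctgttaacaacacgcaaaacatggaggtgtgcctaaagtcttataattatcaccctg
Sult1b1, chr5:87538196-87538445, minus strand: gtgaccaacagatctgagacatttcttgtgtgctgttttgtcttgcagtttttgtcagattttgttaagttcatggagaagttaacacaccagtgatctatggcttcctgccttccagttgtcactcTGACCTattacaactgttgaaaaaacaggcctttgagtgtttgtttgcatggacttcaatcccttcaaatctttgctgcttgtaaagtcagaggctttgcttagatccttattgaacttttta
Sult1e1 and Sult1b1 each held a nuclear receptor half-site on the opposite strand (TGACCT), at 113 to 108 and 123 to 118 bases before the start, and Sult1d1 held none of the 5 motifs. These letters are common: 14.0% of 32817 RefSeq promoters of the same length held the half-site. Sult1a1, Sult1c2 and Sult5a1 held none of the 5 motifs either.

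Sult1c2 was lower after depletion in DEN+CCl4, with little spread within each group. The gene lies on chromosome 17 (53829637 to 53846339, minus strand) and encodes a phenol sulfotransferase of the SULT1 group. It measured 8.30, 7.06 and 7.09 CPM in controls and 1.46, 2.18 and 1.73 CPM after depletion, which corresponds to 233, 256 and 245 counts against 42, 76 and 56. The 2 groups were well apart, with means of 7.48 ± 0.705 and 1.79 ± 0.365 CPM (SD, n = 3). The log2 difference was -2.06 (SE 0.21) and lay between -2.23 and -1.93 over all alternatives. Its N-Ras+AKT levels were 5.66, 4.11 and 6.70 CPM in controls and 4.76, 4.78 and 4.47 CPM after depletion, groups that overlapped, with a log2 difference of -0.23 (SE 0.20). The difference between the depletion effects was 1.82 (SE 0.29). The window before its start is shown because it held none of the 5 motifs.
Sult1c2, chr17:53845959-53846208, minus strand: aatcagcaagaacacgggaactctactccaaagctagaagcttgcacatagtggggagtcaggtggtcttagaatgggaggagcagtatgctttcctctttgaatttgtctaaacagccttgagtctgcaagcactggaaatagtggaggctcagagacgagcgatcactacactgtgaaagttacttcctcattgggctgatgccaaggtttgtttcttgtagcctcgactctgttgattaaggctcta
Across the 12 libraries Sult1c2 ran against Sult1e1 (r = -0.751, as a description).

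Sult2a8, which sulfates bile acids in mouse liver, had opposite differences in the 2 models. The gene lies on chromosome 7 (14410686 to 14446769, minus strand). In DEN+CCl4 it measured 14.5, 16.6 and 5.70 CPM in controls and 2.12, 3.31 and 3.67 CPM after depletion. Every depletion library was below every control, with a log2 difference of -2.01 (SE 0.82). In N-Ras+AKT it measured 0.578, 2.06 and 0.949 CPM in controls and 51.8, 8.72 and 127 CPM after depletion. All 3 depletion libraries were above all N-Ras+AKT controls, with means of 1.196 ± 0.772 and 62.4 ± 59.6 CPM (SD, n = 3). They differed among themselves by 14.5 times, and library 11 lay within the range of the DEN+CCl4 controls. The log2 difference was 5.71 (SE 0.94), and 4.66 without depletion library 17 or 6.36 without control library 10. In both pairs the groups were separate and on opposite sides, and the difference between the depletion effects was 7.72 (SE 1.24).

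The other Sult2a genes did not follow Sult2a8 in DEN+CCl4. Summed without Sult2a8, they measured 48.3, 55.1 and 30.0 CPM in DEN+CCl4 controls and 219, 104 and 89.4 CPM after depletion, above the controls where Sult2a8 was below them. In N-Ras+AKT the same sum was 3.04, 13.6 and 2.79 CPM in controls and 18.5, 46.1 and 18.4 CPM after depletion. Library 11 held the most of the other Sult2a transcripts and the least Sult2a8, which made up 15.9% of all Sult2a reads there against 73.6% and 87.3% in libraries 6 and 17. With all Sult2a genes taken as 1, as if their reads could not be told apart, the log2 difference was 1.31 in DEN+CCl4 and 3.55 in N-Ras+AKT, and the difference between the depletion effects was 2.25. The lower level in DEN+CCl4 is therefore a result on reads assigned to Sult2a8 itself and not on the family. RefSeq gives Sult2a8 a pair of starts, and the windows before both are shown because they hold more of the searched motifs than that of any other of the 8 genes.
Sult2a8, chr7:14446588-14446837, minus strand: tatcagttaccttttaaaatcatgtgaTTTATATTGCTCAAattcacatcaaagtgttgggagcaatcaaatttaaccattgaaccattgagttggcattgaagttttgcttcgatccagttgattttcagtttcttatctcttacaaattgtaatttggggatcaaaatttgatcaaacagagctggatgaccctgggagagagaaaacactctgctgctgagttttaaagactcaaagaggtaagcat
Sult2a8, chr7:14438552-14438801, minus strand: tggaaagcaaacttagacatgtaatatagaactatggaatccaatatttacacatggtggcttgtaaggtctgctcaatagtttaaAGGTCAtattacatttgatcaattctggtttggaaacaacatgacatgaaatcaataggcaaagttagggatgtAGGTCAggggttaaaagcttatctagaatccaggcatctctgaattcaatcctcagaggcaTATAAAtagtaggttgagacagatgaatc
The first window held a TATA box on the opposite strand directly followed by a CEBP match (223 to 218 and 217 to 210 bases before the start). The second held the nuclear receptor half-site at 164 to 159 and at 90 to 85 bases and a TATA box at 29 to 24 bases. TATA boxes occurred in 12.4% and CEBP matches in 9.57% of all promoter windows, and whether any factor binds at these letters was not measured.

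Sult3a1, which sulfates amines, was near the limit of detection outside N-Ras+AKT depletion. The gene lies on chromosome 10 (33857721 to 33879532, plus strand). Its counts were 0, 7 and 4 in DEN+CCl4 controls, 10, 3 and 4 after depletion, and 8, 10 and 1 in N-Ras+AKT controls, each at most 0.348 CPM. After depletion in N-Ras+AKT it had 83, 36 and 240 counts, or 1.98, 0.793 and 5.41 CPM, all above every other library. The log2 difference was 4.55 (SE 0.90), and 3.57 without depletion library 17. Its window is shown because it held the only STAT motif among the 8 genes.
Sult3a1, chr10:33857472-33857721, plus strand: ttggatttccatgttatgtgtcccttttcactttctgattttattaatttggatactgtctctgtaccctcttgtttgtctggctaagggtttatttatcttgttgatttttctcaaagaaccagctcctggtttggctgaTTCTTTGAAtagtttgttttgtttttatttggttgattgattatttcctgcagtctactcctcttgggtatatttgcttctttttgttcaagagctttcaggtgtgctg
The motif lay 109 to 101 bases before the start, and 7.01% of all promoter windows held one.

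Sult5a1, on chromosome 8 (123140192 to 123158315, minus strand), was set apart by its near absence from N-Ras+AKT controls. It measured 13.1, 3.89 and 22.9 CPM in DEN+CCl4 controls and 9.26, 16.3 and 4.13 CPM after depletion, groups that overlapped fully. In N-Ras+AKT it measured 0.330, 0.295 and 0.0404 CPM in controls and 2.68, 3.96 and 14.2 CPM after depletion. All depletion libraries were above all controls, with a log2 difference of 4.91 (SE 1.0), or 3.85 without depletion library 17. The controls of the 2 models did not overlap, and the log2 difference between them was -5.85 (SE 1.03), or -5.20 without DEN+CCl4 control 13. After depletion, the N-Ras+AKT libraries overlapped the range of DEN+CCl4 controls.

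**Figure D3:**
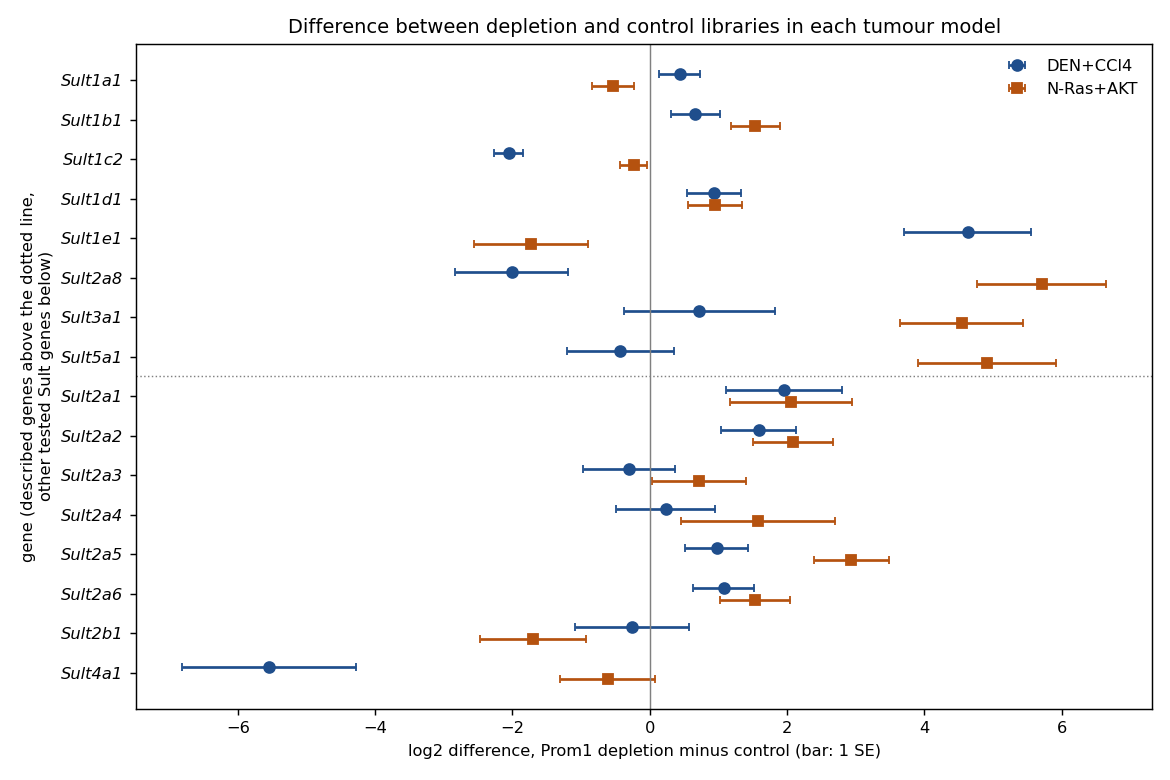
Log2 difference between Prom1 depletion and control (horizontal axis, bars of 1 SE) in DEN+CCl4 and N-Ras+AKT for the 8 described genes, above the dotted line, and the 8 other Sult genes that were tested, below it. Sult1e1 and Sult2a8 lie on opposite sides of 0 in the 2 models, from 4.63 to -1.73 and from -2.01 to 5.71, whereas Sult1d1 lies at 0.93 and 0.95.

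Counted over the list, the groups did not overlap for 4 of 8 genes in DEN+CCl4 (Sult1b1 and Sult1e1 higher, Sult1c2 and Sult2a8 lower), where 27.5% of all tested genes did not overlap (11.5% higher, 16% lower). In N-Ras+AKT they did not overlap for 4 of 8, all higher after depletion (Sult1b1, Sult2a8, Sult3a1 and Sult5a1), where 43% of all genes did not (21.4% higher, 21.5% lower). Between the controls they did not overlap for 5 of 8, all lower in N-Ras+AKT (Sult1b1, Sult1c2, Sult1d1, Sult2a8 and Sult5a1), against 54.5% of all genes (28.4% higher, 26.1% lower). Over all genes, edgeR's quasi-likelihood test called 0.37% in DEN+CCl4, 23.7% in N-Ras+AKT, 11.6% for the difference between the depletion effects and 40.6% between the controls, at an adjusted p under 0.05. Since the 8 genes were chosen with these contrasts known, nothing is read from their counts against these shares. The median log2 difference of the 8 was 0.55 in DEN+CCl4 and 1.25 in N-Ras+AKT, beside medians of -0.01 and -0.02 over all genes. For the same reason nothing is read from the distance between these medians. The depletion effects and the comparison of controls share control libraries and are not independent.

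The genes whose log2 CPM followed each member most closely over the 12 libraries are given as a description, with Pearson's r. For Sult2a8 they were Acbd5 (r = 0.979), Akr1c14 (0.971) and Abcd3 (0.966), of which Acbd5 and Abcd3 encode peroxisomal membrane proteins. For Sult1d1 they began with Slc37a4 (0.981), the glucose-6-phosphate transporter, and for Sult1b1 with Agpat3 (0.988), an acyltransferase of phospholipid synthesis. Sult3a1 was closest to Slc25a47 (0.968), a mitochondrial carrier, Sult5a1 to BC024386 (0.969), Sult1e1 to Tmem71 (0.939), Sult1c2 to Plekhf2 (0.939) and Sult1a1 to Firre (0.937). Since the 4 groups differ widely in these libraries, any gene that differs between groups in the same way gives a high r.

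Of the 19 other Sult genes of the annotation, 8 passed the filter. They are the members that the choice of the list left over, and that choice was made with results of these libraries known. Their calls and p-values are therefore not those of an independent set. None of these 8 genes was called in DEN+CCl4 by edgeR, which called 0.37% of all genes there. Of the 8, 4 had an unadjusted p under 0.05 with edgeR (3 higher and 1 lower), and DESeq2 called 2 (limma none). The largest difference there was that of Sult4a1, at 0.961, 2.18 and 0.174 CPM in controls and 0.0348, 0.0287 and 0 CPM after depletion. Its log2 difference was -5.54 (SE 1.27, edgeR adjusted p = 0.0715). In N-Ras+AKT edgeR and DESeq2 each called 3 higher and 0 lower, limma called 2 higher and 1 lower, and 5 had an unadjusted p under 0.05 with edgeR, where 23.7% of all genes were called. Sult2a5 rose from 0.0660, 0.497 and 0.162 CPM to 1.46, 2.66 and 1.44 CPM (log2 2.94, SE 0.54, adjusted p = 0.00537), which kept its call in all 14 alternatives and was 4.03 without control library 10. Sult2a2 (log2 2.08, adjusted p = 0.0272) and Sult2a6 (1.54, 0.0469) lost theirs in several, with the largest adjusted p at 0.0974 without control library 3 and 0.143 without control library 15, and that of Sult2a2 was 3.15 on the log2 scale without control library 10. Sult2a1, the classical hydroxysteroid sulfotransferase, was at 0.809, 4.77 and 0.666 CPM in controls and 4.78, 17.1 and 4.08 CPM after depletion and did not pass (log2 2.05, adjusted p = 0.118). Sult2a3 (log2 0.72, adjusted p = 0.478) and Sult2b1 (-1.70, 0.131) did not pass there either. Between the controls, Sult2a5, Sult2a2, Sult2a6 and Sult2a1 were lower in N-Ras+AKT (log2 -3.98, -2.84, -2.50 and -2.49) and Sult4a1 was higher (2.10), each past an adjusted p of 0.05. Of all genes, 40.6% were called in that contrast. The adjusted p of Sult2a1 was 0.148 without N-Ras+AKT control 3, and that of Sult4a1 was 0.116 without DEN+CCl4 control 7. Without N-Ras+AKT control 10 the differences of Sult2a5, Sult2a2 and Sult2a1 were -5.07, -3.90 and -3.97, and without DEN+CCl4 control 8 that of Sult4a1 was 3.10. Sult2a4 was called lower too, on 1 count in each N-Ras+AKT control against 15, 5 and 6 counts in DEN+CCl4 controls, and its adjusted p was 0.0516 without DEN+CCl4 control 7. Over the coding sequence Sult2a1, Sult2a4 and Sult2a5 were 93.8% to 94.9% identical to each other, and Sult2a6 was 88.6% to 89.7% identical to them. Sult2a2 was 66.8% identical to Sult2a1 over 858 aligned columns, but its coding sequence is only 585 bases long, which lowers that value. These genes, Sult2a2 included, may share reads, and their values are uncertain as separate genes. None of the 8 differed between the models in its depletion effect by edgeR's test, which called 11.6% of all genes there. Of the 8, 2 had an unadjusted p under 0.05 with edgeR, and DESeq2 called 2 (limma none).

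The donor PAPS is made from sulfate and ATP by Papss1 and Papss2, and other genes of sulfate supply bring in sulfate, oxidise sulfide and sulfite, and break down the spent donor. Of 15 tested genes of this list, edgeR called 5 higher and 0 lower after depletion in N-Ras+AKT, where it called 23.7% of all genes, and the list median log2 difference was 0.39. With DESeq2 6 were higher and 3 lower, with limma 6 and 2, and of the 11 with an unadjusted p under 0.05 in edgeR 3 were lower. Papss2, the main liver form, rose from 21.04, 50.4 and 34.0 CPM to 127, 116 and 240.4 CPM (log2 2.20, SE 0.35, adjusted p = 0.00376). The sulfite oxidase Suox rose by 1.28 (SE 0.25, adjusted p = 0.00657), the persulfide dioxygenase Ethe1 by 0.96 (0.17, 0.0045), the sulfate transporter Slc26a1 by 0.91 (0.22, 0.0131) and Bpnt1, which dephosphorylates the spent donor, by 0.53 (0.12, 0.0112). The Slc26a1 call ended without depletion library 17 (log2 0.64, adjusted p = 0.0512), and that of Bpnt1 when only the N-Ras+AKT groups were fitted (0.0542). Papss1 was at 15.1, 15.7 and 18.1 CPM in controls and 11.8, 11.3 and 11.6 CPM after depletion and did not pass (log2 -0.50, adjusted p = 0.0569).

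In DEN+CCl4 no gene of sulfate supply was called by edgeR or limma, 5 of 15 had an unadjusted p under 0.05 with edgeR, and DESeq2 called 2. Of all genes, edgeR called 0.37% in that contrast. Papss2 was at 378, 322 and 403 CPM in controls and 206, 266 and 334 CPM after depletion (log2 -0.45, SE 0.33, adjusted p = 0.504). The depletion effects on Papss2 differed between the models by 2.65 (SE 0.48, adjusted p = 0.0117), and those on Slc26a1 by 1.52 (SE 0.30, adjusted p = 0.0135), both in all 19 alternatives. Between the controls Papss2 was lower in N-Ras+AKT by a log2 difference of -3.39 (SE 0.37, adjusted p = 8.25e-05). There 3 genes of the list were called higher and 5 lower, where 40.6% of all genes were called.

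**Figure D4:**
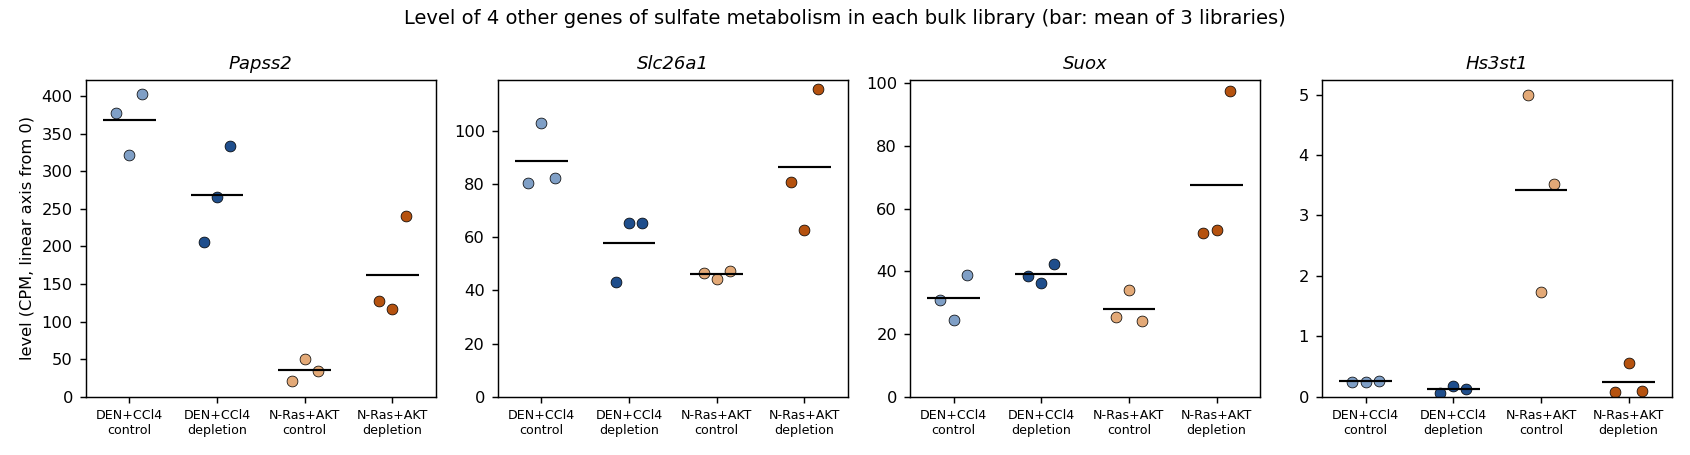
Level (vertical axis, CPM on a linear axis that starts at 0 and differs between panels) of Papss2, Slc26a1, Suox and the heparan sulfate sulfotransferase Hs3st1 in the 3 libraries of each group, with a bar at the mean. Papss2 is at 21.04 to 50.4 CPM in N-Ras+AKT controls, 116 to 240.4 CPM after depletion and 206 to 403 CPM in all DEN+CCl4 libraries, and Hs3st1 is at 1.73 to 5.0 CPM in N-Ras+AKT controls and at most 0.551 CPM elsewhere.

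Membrane-bound sulfotransferases, which use the same donor in the Golgi on sugars and proteins, were counted beside the cytosolic members. Of 22 tested, none was called in DEN+CCl4 by edgeR, DESeq2 or limma (5 with an unadjusted p under 0.05 in edgeR), and in N-Ras+AKT 2 fell. Hs3st1, which adds the 3-O-sulfate of heparan sulfate, fell from 5.0, 1.73 and 3.51 CPM to 0.0717, 0.551 and 0.0902 CPM (log2 -3.82, SE 0.64, adjusted p = 0.00418, and log2 -5.34 without depletion library 11), and Hs2st1, which adds the 2-O-sulfate, fell less (log2 -0.69, SE 0.13, adjusted p = 0.00549). Of 12 tested sulfatases and their activators, 2 rose in N-Ras+AKT, and of these Sumf1, which activates sulfatases, rose by 0.40 (adjusted p = 0.039, or 0.14 without depletion library 17 and 0.138 without control library 3). None was called in DEN+CCl4 by edgeR, DESeq2 or limma, where 1 had an unadjusted p under 0.05. Over the 4 lists together, of 57 tested genes 0, 12, 8 and 31 were called in DEN+CCl4, in N-Ras+AKT, for the difference between the depletion effects and between the controls, where 15, 28, 21 and 36 had an unadjusted p under 0.05. Over all genes the shares called were 0.37%, 23.7%, 11.6% and 40.6%, and the lists were not tested against them.

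Nuclear receptors and liver factors known to act on sulfotransferase genes were counted next. Of 22 tested, none was called in DEN+CCl4 by edgeR, DESeq2 or limma (2 with an unadjusted p under 0.05 in edgeR), where edgeR called 0.37% of all genes. In N-Ras+AKT 7 rose and 2 fell, where 23.7% of all genes were called. Nr1i3, the xenobiotic receptor CAR, rose from 9.44, 26.2 and 11.1 CPM to 57.7, 92.3 and 87.6 CPM (log2 2.35, SE 0.43, adjusted p = 0.00573, and log2 2.95 without control library 10), and Nr1h3, the oxysterol receptor LXRα, rose by 0.78 (SE 0.12, adjusted p = 0.00354), and both calls held in all 14 alternatives. Rxra (0.65, adjusted p = 0.0137), Hnf4a (0.56, 0.0188) and Nr1h4 (0.46, 0.0169) rose, and Foxa3 (-0.61, 0.0146) and Rora (-0.50, 0.025) fell, but without depletion library 17 the adjusted p of these 5 was between 0.0619 and 0.104. Leaving out control library 3 or control library 15 also ended some of these calls. Of 11 genes of growth hormone and sex hormone control, 6 rose and 1 fell in N-Ras+AKT and edgeR called none in DEN+CCl4 (2 with an unadjusted p under 0.05, and 2 called by DESeq2). Cux2, a repressor typical of female liver, rose from 0.380, 1.42 and 0.727 CPM to 3.59, 10.9 and 17.3 CPM (log2 3.66, SE 0.73, adjusted p = 0.00804, and log2 4.28 without control library 10). All 12 libraries had the Y-linked Ddx3y at 57.5 to 92.4 CPM and Xist at no more than 1.41 CPM.

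Marker genes of other cell types and of liver zones moved with these groups. After depletion in N-Ras+AKT, 16 of 18 pericentral hepatocyte markers rose and none fell, and their summed level went from 1021 to 2382 CPM up to 5725 to 8809 CPM. Of 13 tested cholangiocyte markers 9 fell and none rose, from 7348 to 10680 CPM down to 355 to 3591 CPM, and Prom1, the targeted gene, fell with them (log2 -2.90, adjusted p = 0.00953). General hepatocyte markers overlapped, with summed levels of 94350 to 103400 CPM in controls and 94010 to 110400 CPM after depletion, and 5 of 19 rose. Macrophage markers rose in 10 of 14 and fell in 1, with summed levels of 249 to 463 CPM in controls and 667 to 869 CPM after depletion. T and NK cell markers rose in 6 of 12, B and plasma cell markers in 5 of 10, periportal hepatocyte markers in 7 of 16 (1 fell) and endothelial markers in 5 of 16 (1 fell), where 23.7% of all genes were called. In DEN+CCl4 no marker of the pericentral, cholangiocyte and general hepatocyte lists was called by edgeR, which called 0.37% of all genes there. With edgeR 5 of 18, 2 of 13 and 5 of 19 of these markers had an unadjusted p under 0.05. DESeq2 called 3, 0 and 2 of them, and limma called 1, 0 and 0. There the pericentral sum was 1339 to 1631 CPM in controls and 1928 to 3097 CPM after depletion, the cholangiocyte sum 277 to 586 and 105 to 233 CPM, and the hepatocyte sum 239100 to 308800 and 204500 to 260200 CPM. The endothelial sum was 649 to 755 CPM in controls and 324 to 529 CPM after depletion, the erythroid sum 47.6 to 90.2 and 3.62 to 19.5 CPM, and the B and plasma cell sum 97.9 to 175 and 45.2 to 83.4 CPM, each without overlap. Of these markers edgeR and limma called none, 12 of 16, 6 of 6 and 8 of 10 had an unadjusted p under 0.05 with edgeR, and DESeq2 called 12, 5 and 1 lower. Stellate cell, T and NK cell, and intestine and kidney sums were lower without overlap too, the periportal sum was higher without overlap, and the macrophage and neutrophil sums overlapped. Prom1 did not pass there (log2 -0.995, adjusted p = 0.381). Between the controls, where 40.6% of all genes were called, the hepatocyte sum was lower in N-Ras+AKT, with 14 of 19 markers called lower. The cholangiocyte sum was higher there, with 11 of 13 called higher. Sult1b1, Sult1c2, Sult1d1, Sult2a8 and Sult5a1 were lower there without overlap, while Sult1a1, Sult1e1, Sult3a1 and the summed Sult level overlapped. No marker of the pericentral, cholangiocyte and general hepatocyte lists was at 0 in every library. The share of counts from mitochondrial genes moved with depletion in both models, from 5.63% to 6.06% in DEN+CCl4 controls up to 7.89% to 8.24%, and from 4.86% to 7.02% in N-Ras+AKT controls up to 7.79% to 9.77%. With mitochondrial and ribosomal RNA genes removed, no log2 value of the 8 genes moved by more than 0.0011. The part of the cell markers in the sulfotransferase differences was not tested, and in bulk tissue fewer cells of a type and less RNA per cell cannot be told apart.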

How the data were processed

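The bulk table holds whole-number read counts per gene, as deposited by the authors, with no normalization; whether they are rounded estimates is not given in the sources used here. The submitters' processing notes name STAR 2.7.3, RSEM 1.3.1 and Cell Ranger 3.0.2 with the mm10 genome, without saying which step each served, and the sources used here do not name an annotation, a strand setting or filters. Of 55335 genes, 55154 matched GENCODE M21, and the 181 others held 0.0064% of counts. Library totals were 31306617 to 48055812 counts. Single-cell data (6 samples) were left out: not analysed here.

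Counts were fitted with edgeR 4.0.16 in R 4.3.3 (filterByExpr, TMM factors 0.773 to 1.323, 1 robust quasi-likelihood fit of 4 group means over 12 libraries with 8 residual degrees of freedom), and p-values were adjusted by Benjamini-Hochberg over all 17013 genes. The script was tested on simulated data. Alternatives were DESeq2 1.42.0, its size factors, limma 3.58.1 voom, other filters, removal of mitochondrial and ribosomal RNA genes, only the groups compared, summed Sult2a or Sult3a copies, and each library left out. Leaving out DEN+CCl4 depletion 6 and N-Ras+AKT depletion 17 together was added after seeing the data. The 8 genes and all gene lists were chosen with earlier results of these data known. Named by rule were the 8 genes, every other tested Sult gene, up to 4 called genes per list and direction with the largest log2 difference, and the 3 genes most like each member. Further pathway genes named beyond that limit, Papss1 and Sult2a1 among them, were added for their role. Results of some genes on the lists are not reported here. Correlations used log2 CPM with a prior count of 2. Sequences are from RefSeq (promoters, GRCm38.p6, 250 bases) and GENCODE M21 transcripts.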

Additional observations from a re-analysis of the deposited data

Results flagged for a closer look

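The depletion effect on Sult2a8 differed between the models by a log2 value of 7.72: all 3 depletion libraries were below all controls in DEN+CCl4 and above all controls in N-Ras+AKT. This difference was not tested, because the gene was chosen with results of these libraries known. For the other genes below, the difference between the depletion effects (N-Ras+AKT minus DEN+CCl4) itself passed edgeR's test at an adjusted p under 0.05.

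Among genes of sulfate supply, the effect differed for Papss2 (2.65), Slc26a1 (1.52), the sulfide oxidase Sqor (1.02), the thiosulfate sulfurtransferase Tst (0.85) and the Golgi PAPS transporter Slc35b3 (-0.86). Of these 5, Papss2 and Slc26a1 passed in all 19 alternatives. The call of Sqor ended in 10 of 19 alternatives (adjusted p up to 0.11), that of Tst in 8 (up to 0.0961) and that of Slc35b3 in 12 (up to 0.134). Among the other sulfation genes, the effect differed for Chst3 (4.09), a chondroitin sulfotransferase that had under 0.7 CPM in every library, and for Hs2st1 (-0.75). The call of Chst3 ended in 11 of 18 alternatives (adjusted p up to 0.132) and that of Hs2st1 in 5 of 19 (up to 0.0811). The value of Chst3 was 6.12 without DEN+CCl4 depletion library 10 and 3.05 without both DEN+CCl4 library 6 and N-Ras+AKT library 17.

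Among nuclear receptors, the effect differed for Esr1 (1.41), Ppara (1.204), Nr1h3 (1.07), Rxra (0.80) and Nr1h4 (0.69). Nr1h3 passed in all 19 alternatives. The call of Esr1 ended in 3 of 19 alternatives (adjusted p up to 0.0582) and that of Nr1h4 in 5 (up to 0.0662). Those of Ppara and Rxra ended in 14 (up to 0.146) and 10 (up to 0.101).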

How the results depend on the processing

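Groups of 3 libraries limit what can be called, and single libraries moved the counts. In DEN+CCl4, 63 genes were called; DESeq2 called 1066, edgeR with no filter 171, and with only the groups compared 13. Leaving out each library in turn gave 2 (without control 8) to 465 (without depletion 10), and each of the 6 moved the count by more than 1.5 times. In N-Ras+AKT the 4027 calls became 2626 with only the groups compared and 1768 (without depletion 17) to 4126 with each library left out, where leaving out control 3 (2257) or 15 (2225) also moved it by more than 1.5 times. The 1970 calls for the difference between the depletion effects became 2984 with DESeq2 and 895 (without DEN+CCl4 control 7) to 2326 with each library left out; DEN+CCl4 control 8 (1130) or 13 (1181) or depletion 9 (986), and N-Ras+AKT control 3 (1176) or 15 (1060) or depletion 6 (1232) or 17 (939), moved it by more than 1.5 times too, and the 6901 between the controls became 5349 to 6259. Without both depletion libraries named in the methods (DEN+CCl4 library 6, N-Ras+AKT library 17), the first 3 counts were 26, 2429 and 844. For the 57 genes of the 4 sulfation lists, DESeq2 called 4 in DEN+CCl4 (edgeR 0) and 15 for the difference (edgeR 8), which was 2 with both libraries left out and 2 to 12 with each left out. In N-Ras+AKT the 12 calls became 8 to 17, and between the controls the 31 became 24 to 29.

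Of 482 alternative values for the 8 genes, 471 stayed within the spread between libraries and 11 moved beyond it. The alternatives refitted the same counts or left out libraries, so most values could hardly move beyond that spread. The 471 are therefore no test of stability, and nothing is read from their number. The value of Sult2a8 in DEN+CCl4 went from -2.01 to 1.31 with all Sult2a genes summed. The direction of Sult5a1 and Sult3a1 in DEN+CCl4 changed when 1 library was left out (-0.99 to 0.23 and -0.06 to 1.49), as did that of Sult3a1 between the controls (-0.44 to 0.84). The difference between the depletion effects on Sult1d1, 0.019, lay between -0.24 and 0.65. Sult1b1 in N-Ras+AKT was 2.05 without control 10. No paired analysis was made. The labels do not pair the libraries of the groups compared, and library numbers are not said to stand for pairs.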
